A study of Mus musculus with 9 samples.

Results

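The 10 genes described here are Trp53, which encodes the transcription factor p53, and 9 genes known as its targets: Mdm2, Cdkn1a, Ccng1, Plk2, Plk3, Sesn1, Sesn2, Gdf15 and Zmat3. They were taken by symbol from 55416 annotated genes whose RNA was counted in 4T1, a tumour cell line that arose in the mammary gland of a BALB/c mouse, and each symbol matched 1 gene. The study had 3 conditions with 3 libraries each, 9 in all. Cells of the MRC+L group were kept for 12 h with MRC nanoparticles and lit at 660 nm for 3 min at 180 mW per square centimetre, a figure whose unit is mV in another field of the labels. Cells of the MRC group were kept for 12 h with the same particles without light, and cells of the PBS group for 12 h in fresh DMEM, the medium all groups share. The labels do not spell out MRC. No group had light without particles, so an effect of light alone was not measured. The line is 1 cell line, and the labels do not say that libraries came from separate cultures, so p-values reflect how far these samples vary, and that variation may be technical.

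p53 is a transcription factor that is stabilised when DNA damage or other stress blocks its destruction by MDM2, and it then binds paired decamers near its target genes. Its targets stop the cell cycle, repair DNA, restrain growth signalling or kill the cell, and Mdm2 is itself a target, which closes a feedback loop. Many targets also answer to other factors: ATF4 and CHOP drive Sesn2 and Gdf15 in the integrated stress response, and Plk2 and Plk3 are induced by serum, growth signals and several stresses. 4T1 cells are widely described as lacking functional p53; counts per gene do not show the allele or the protein. For this reason the 4 targets with well-known other drivers (Plk2, Plk3, Sesn2 and Gdf15, called stress-shared here) are set beside the remaining 5 targets (Mdm2, Cdkn1a, Ccng1, Sesn1 and Zmat3). Cdkn1a has other drivers too, and values with it on the stress-shared side are also given.

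Levels are in CPM, read counts scaled for library depth with TMM factors, and ± marks the SD over n = 3 libraries. Log2 fold changes are given ± SE. Genes were tested in edgeR by quasi-likelihood, p-values were adjusted after Benjamini and Hochberg over 13439 genes, and a gene was called where the adjusted p was under 0.05. Library totals lay between 15019765 and 20044166 counts, and a count of 0 allows up to 0.15 to 0.2 CPM by library (3 counts, counting error only). PBS replicate 2 differed from the rest in a trend with gene length. In log ratios to the mean over libraries, the tenth of genes with the shortest exons minus the tenth with the longest gave 0.920 on the log2 scale, against -0.249 to 0.0843 in the other 8 libraries. The biological coefficient of variation was 0.0580 within MRC+L, 0.0807 within MRC and 0.280 within PBS. Of 5 epithelial markers Krt8 and Krt18 made up almost all counts and Epcam had 0 to 5 counts in any library. The summed epithelial markers lay at 484 to 502 CPM in MRC+L, 544 to 577 CPM in MRC and 973 to 1733 CPM in PBS, and the part of this shift in the results was not tested. Krt14 on the same list ran the other way, at 1.40 to 1.47 CPM in MRC+L, 1.63 to 1.96 CPM in MRC and 0.104 to 0.412 CPM in PBS. Among leukocyte markers Adgre1 had no count and Ptprc 0 to 3 counts, while Cd68, which tumour cells also express, brought the sum of 5 markers to 18.4 to 20.04 CPM in MRC+L, 16.96 to 22.8 CPM in MRC and 7.16 to 11.8 CPM in PBS. The sum of 5 fibroblast and endothelial markers was 70.3 to 80.4 CPM in MRC+L, 75.0 to 89.4 CPM in MRC and 33.1 to 62.7 CPM in PBS, mostly Pdgfra, with Dcn at 0 to 1 counts.

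All 10 genes passed the filter on low counts, Gdf15 only through the libraries with particles, so it is counted below as a description. In lit cells with particles 9 of the 10 rose and Ccng1 fell against PBS, where 46.2% of all tested genes were called, 21.8% higher and 24.5% lower. Particles without light gave 7 that rose (Trp53, Mdm2, Plk2, Plk3, Sesn2, Gdf15 and Zmat3) and 1 that fell (Ccng1), where 37.6% of all genes were called, 17.8% higher and 19.8% lower. Between lit and unlit cells with particles edgeR called 0 of the 10 and 0 of all genes (0.0%), where 573 genes (4.26%) had an unadjusted p under 0.05 and DESeq2 called 25. The libraries of the 2 groups did not overlap for 10 of 10 members in MRC+L against PBS, beside 56.3% of all genes, and for 9 of 10 in MRC against PBS, beside 48.3%. Both comparisons with PBS use the same 3 PBS libraries, so they are not separate evidence. The median log2 fold change of the 10 was 0.97 in MRC+L and 0.78 in MRC against PBS, beside -0.03 in each over all tested genes. The members were chosen with earlier results known, so this gap is a description. In a wider list of 34 other p53 targets, described below, the median was 0.01 in MRC+L and 0.11 in MRC. Counts are shares of each library, so a change in how many cells carry a transcript cannot be told apart from a change in transcript per cell.

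**Figure D1:**
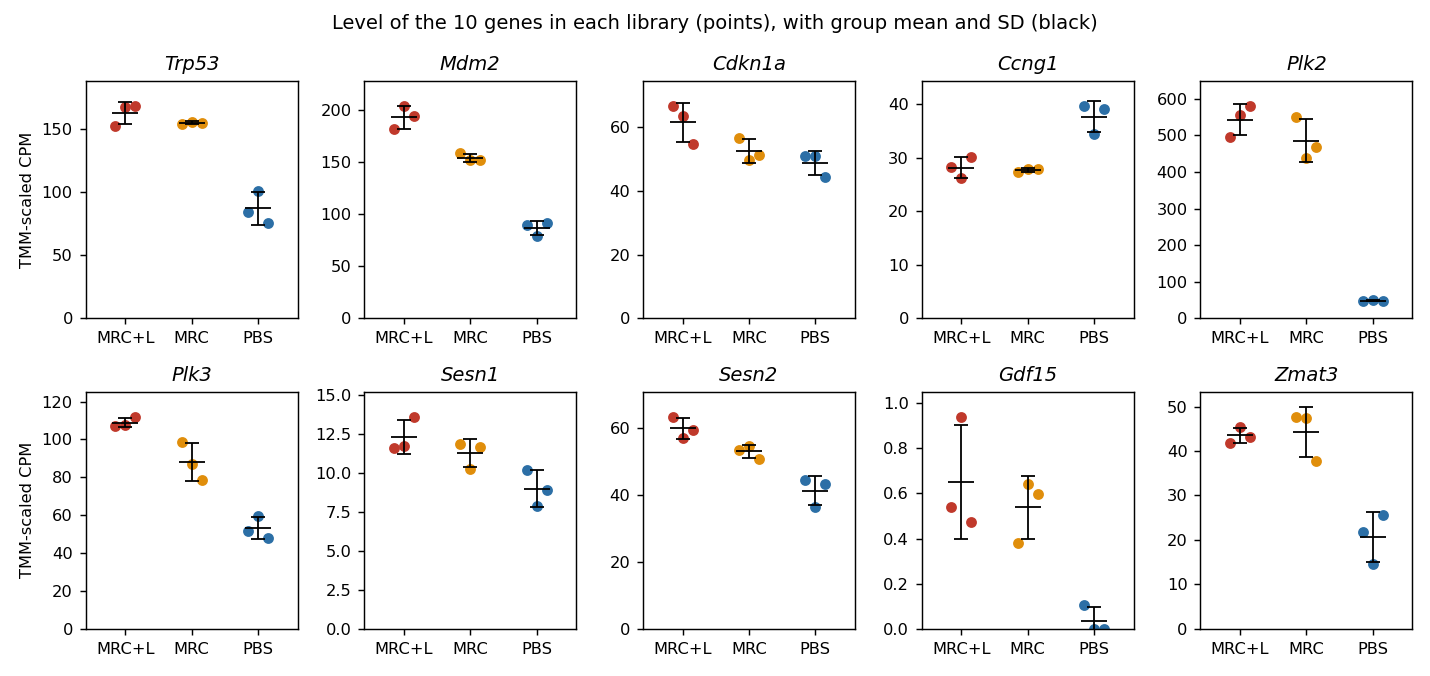
TMM-scaled CPM (vertical axes, linear from 0, 1 scale per gene) of the 10 genes in each of the 3 MRC+L, 3 MRC and 3 PBS libraries; points are libraries and black marks the group mean and SD. Plk2 lies at 437 to 579 CPM in the 6 libraries with particles and 46.1 to 49.8 CPM in PBS, and Ccng1 is the 1 gene whose PBS libraries are highest.

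The factor and its main inhibitor both had more transcript after MRC. Trp53 (chr11:69471185-69482699, plus strand, GRCm39) had 152, 167 and 168 CPM in MRC+L, 153, 156 and 155 CPM in MRC, and 84.1, 101 and 75.7 CPM in PBS. All 6 libraries with particles lay above all PBS libraries, and the lit and unlit groups overlapped. The log2 fold change was 0.90 ± 0.118 for MRC+L against PBS (1.87-fold, adjusted p = 0.000206) and 0.83 ± 0.117 for MRC against PBS (1.78-fold, adjusted p = 0.000439, edgeR). Mdm2 (chr10:117524780-117546663, minus strand), whose product is the ubiquitin ligase that marks p53 for destruction, had 182, 204 and 194 CPM in MRC+L, 159, 152 and 152 CPM in MRC, and 90.0, 79.4 and 91.2 CPM in PBS. None of its 3 groups overlapped another. It rose 2.22-fold in MRC+L against PBS (log2 1.15 ± 0.0992, adjusted p = 1.64e-05) and 1.78-fold in MRC against PBS (log2 0.83 ± 0.0987, adjusted p = 0.00016, edgeR). Trp53 and Mdm2 stayed called against PBS in all 17 alternatives of each comparison.

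Mdm2 was also the member closest to a call between lit and unlit cells. Its means were 193 ± 10.9 CPM in MRC+L and 154 ± 3.76 CPM in MRC, a log2 difference of 0.32 ± 0.0978 with adjusted p = 0.988 in the edgeR fit to 9 libraries, where the spread is shared with PBS. It was called as higher in MRC+L with adjusted p = 0.00455 when only the 6 libraries of that comparison were fitted, 0.0346 without PBS replicate 2, and 0.0424 with limma voom and 1 weight per group. Among all genes these 3 fits called 4.8%, 0.759% and 0.588%. Plk3 was called only in the 6-library fit (adjusted p = 0.0176, log2 0.31 ± 0.0744), at 109 ± 2.51 CPM in MRC+L, against 78.6 to 98.5 CPM in MRC. The groups did not overlap for Mdm2, Plk3 and Sesn2, 3 of 10, beside 24.4% of all tested genes.

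Cdkn1a (chr17:29309950-29319701, plus strand) encodes p21, the inhibitor of cyclin-dependent kinases through which p53 halts cells in G1. It had 66.5, 63.5 and 54.8 CPM in MRC+L, 56.7, 49.8 and 51.2 CPM in MRC, and 50.9, 50.9 and 44.5 CPM in PBS. The MRC and PBS libraries overlapped, while all MRC+L libraries lay above all PBS libraries. The difference of MRC+L from PBS was 1.26-fold (log2 0.34 ± 0.113, adjusted p = 0.0326, edgeR), and this call was lost in 8 of 17 alternatives. Its adjusted p was 0.123 without MRC+L replicate 1, 0.103 without MRC+L replicate 2, 0.0520 without MRC replicate 3, 0.0578 without PBS replicate 1 and 0.0723 without PBS replicate 3. For MRC against PBS the log2 difference was 0.11 ± 0.113 (adjusted p = 0.483), and no alternative called it. Ccng1 (chr11:40639379-40646138, minus strand) encodes cyclin G1, which binds the phosphatase PP2A and acts on MDM2. It had 28.2, 26.2 and 30.1 CPM in MRC+L, 27.3, 27.8 and 27.9 CPM in MRC, and 39.6, 34.4 and 39.0 CPM in PBS, with no overlap between PBS and either group. It was 1.34-fold lower in MRC+L (log2 -0.42 ± 0.105, adjusted p = 0.00892) and 1.36-fold lower in MRC (log2 -0.44 ± 0.105, adjusted p = 0.00797, edgeR) than in PBS. These calls were lost only with no filter on low counts (adjusted p = 0.0506 and 0.058).

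A stretch of 273 exon bases of Cdkn1a (7.68%) overlaps an antisense gene, AC167363.2, which had 0 to 8 counts, and 84 exon bases of Plk3 (3.32%) overlap Tctex1d4 on the other strand, with 0 to 8 counts as well. Counting used no strand option, so reads from those stretches cannot be assigned to a strand; the other 8 members share no exon base with another gene.

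The promoters of Mdm2 and Cdkn1a are shown because these genes are the textbook p53 targets of the set. A difference between the 2 genes in their response was not tested. Each line holds the 250 bases before a RefSeq start in GRCm38.p6, an older build than that of the counts, written 5′ to 3′ on the strand of the gene; capitals mark matches to the p53 decamer. The Mdm2 window is chr10:117710759-117711008 on the minus strand and the Cdkn1a window, at the more upstream of its 2 listed starts, is chr17:29090729-29090978 on the plus strand.
Mdm2: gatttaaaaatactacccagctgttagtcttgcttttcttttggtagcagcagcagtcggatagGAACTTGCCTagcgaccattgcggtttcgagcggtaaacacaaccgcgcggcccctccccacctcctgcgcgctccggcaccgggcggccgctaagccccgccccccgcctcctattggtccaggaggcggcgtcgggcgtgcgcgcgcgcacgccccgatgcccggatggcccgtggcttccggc
Cdkn1a: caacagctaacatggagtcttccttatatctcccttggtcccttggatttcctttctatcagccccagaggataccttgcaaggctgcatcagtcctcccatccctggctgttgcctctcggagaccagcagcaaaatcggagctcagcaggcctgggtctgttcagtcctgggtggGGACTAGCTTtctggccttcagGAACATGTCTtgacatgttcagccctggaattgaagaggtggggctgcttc
A decamer match lies at -186 to -177 in Mdm2, and matches lie at -73 to -64 and -51 to -42 in Cdkn1a, counted back from -1 at the base before the start. Those of Cdkn1a lie close enough for a paired p53 site, set here as 2 exact decamers at most 13 bases apart, which 0.0639% of 32851 mouse promoter windows hold. Directly after the second Cdkn1a match, the letters tgacatgttc differ from the decamer at their first base only and so stay unmarked. Which decamers pair was not tested. A single decamer was found in 7.13% of windows. RefSeq windows were listed for 9 of the 10 members, 12 windows in all. The window at the other listed start of Cdkn1a held no decamer match. Besides Mdm2 and Cdkn1a a decamer was found in Ccng1, Sesn1 and Trp53, and none in the windows of Plk2, Plk3, Sesn2 and Gdf15. A match of letters is not evidence of binding, and a window without one says nothing about sites elsewhere. Whether p53 acts on Mdm2 or Cdkn1a through the marked letters was not tested.

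The polo-like kinases Plk2 and Plk3, which act on centrosomes and stress signalling rather than on spindle assembly like Plk1, both rose. Plk2 (chr13:110531580-110537378, plus strand) had 495, 555 and 579 CPM in MRC+L, 550, 437 and 469 CPM in MRC, and 46.1, 49.8 and 47.7 CPM in PBS. The 6 libraries with particles were far above PBS and mixed among themselves. The fold change was 11.3 in MRC+L (log2 3.50 ± 0.129, adjusted p = 5.2e-07) and 10.1 in MRC (log2 3.34 ± 0.128, adjusted p = 6.95e-07, edgeR). Plk3 (chr4:116985852-116991160, minus strand) had 107, 108 and 112 CPM in MRC+L, 98.5, 87.0 and 78.6 CPM in MRC, and 51.7, 59.4 and 48.0 CPM in PBS, with no overlap between any 2 groups. It rose 2.05-fold in MRC+L (log2 1.04 ± 0.118, adjusted p = 8.68e-05) and 1.66-fold in MRC (log2 0.73 ± 0.117, adjusted p = 0.00094, edgeR). Both kinases stayed called against PBS in all 17 alternatives.

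The promoters of the kinases are shown because Plk2 had the largest fold change among the members with more than a few counts. Capitals mark the cyclic AMP response element TGACGTCA in Plk2 and its core TGACG in Plk3, letters that ATF and CREB family factors are known to bind. The windows are chr13:110394794-110395043 on the plus strand and chr4:117133964-117134213 on the minus strand of GRCm38.p6, from RefSeq.
Plk2: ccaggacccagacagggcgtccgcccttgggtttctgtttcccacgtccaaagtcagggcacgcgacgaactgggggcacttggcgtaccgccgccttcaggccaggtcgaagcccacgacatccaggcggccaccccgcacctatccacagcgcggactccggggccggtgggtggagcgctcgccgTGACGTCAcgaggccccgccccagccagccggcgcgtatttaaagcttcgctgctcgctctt
Plk3: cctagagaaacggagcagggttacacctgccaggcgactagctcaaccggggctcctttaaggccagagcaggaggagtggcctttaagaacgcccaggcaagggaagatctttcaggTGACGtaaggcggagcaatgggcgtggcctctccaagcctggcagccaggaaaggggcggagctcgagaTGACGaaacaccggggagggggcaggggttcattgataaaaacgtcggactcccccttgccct
TGACGTCA lies at -62 to -55 in Plk2 and was found, on either strand, in 1.55% of all windows and in no other member. TGACG, which is part of it, lies at -132 to -128 and -63 to -59 in Plk3 and was found in 17.8% of all windows, and among the members also in Plk2 and 1 window of Sesn1. The letters TGATGNAA, the composite element of ATF4 and C/EBP factors, were in no member window and in 3.45% of all. TGACNNNGC, the antioxidant response element, was in Sesn2 and Trp53 and in 10.2% of all windows.

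Paralogs of the members did not move as 1 group. Of 7 paralogs 5 were tested. Sesn3 rose and Plk1 and Ccng2 fell in each comparison with PBS, where 46.2% of all genes were called in MRC+L and 37.6% in MRC. Plk1, the mitotic kinase of the family, had 107 CPM in MRC+L, 131 CPM in MRC and 208 CPM in PBS, and was 1.95-fold lower in MRC+L and 1.58-fold lower in MRC than in PBS (adjusted p = 8.33e-05 and 0.000995, edgeR). Plk4, which sets centriole number, had 138 CPM in MRC+L, 134 CPM in MRC and 136 CPM in PBS (adjusted p = 0.908 and 0.894 against PBS). Ccng2, the relative of Ccng1 that is known as a FOXO target, fell by 1.00 on the log2 scale in MRC+L and by 0.88 in MRC (adjusted p = 0.000182 and 0.000489), so both cyclin G genes were lower with particles. Cdkn1b, which encodes the p21 relative p27, had 94.9 CPM in MRC+L, 87.8 CPM in MRC and 94.6 CPM in PBS (adjusted p = 0.981 and 0.537).

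The sestrins restrain the growth kinase complex mTORC1, and Sesn2 is a leucine sensor. Sesn2 (chr4:132219343-132237812, minus strand) had 63.3, 57.1 and 59.5 CPM in MRC+L, 53.4, 54.7 and 50.8 CPM in MRC, and 44.4, 36.3 and 43.2 CPM in PBS. The 3 groups did not overlap. It rose 1.45-fold in MRC+L (log2 0.54 ± 0.107, adjusted p = 0.00262), a call kept in all 17 alternatives. In MRC it rose 1.28-fold (log2 0.36 ± 0.107, adjusted p = 0.0243, edgeR), a call lost in 5 of 17 alternatives, among them those without MRC replicate 1 (adjusted p = 0.0735) or MRC replicate 2 (0.0753). Sesn1 (chr10:41685931-41784420, plus strand) had 11.6, 11.8 and 13.6 CPM in MRC+L, 11.9, 10.3 and 11.7 CPM in MRC, and 10.2, 7.88 and 8.90 CPM in PBS, so that the lowest MRC library lay just above the highest PBS library. It rose 1.37-fold in MRC+L (log2 0.45 ± 0.148, adjusted p = 0.0296), a call lost in 6 of 17 alternatives, among them leaving out MRC+L replicate 1 (adjusted p = 0.0507), replicate 2 (0.0591) or replicate 3 (0.112). In MRC its log2 difference was 0.33 ± 0.148 (adjusted p = 0.107). Sesn3, a further sestrin known as a FOXO target, rose 2.01-fold in MRC+L (adjusted p = 0.00725) and 1.83-fold in MRC (adjusted p = 0.0178, edgeR), at 42.0, 38.2 and 20.9 CPM in MRC+L, MRC and PBS. Its call in MRC was lost without MRC replicate 1, MRC replicate 3 or PBS replicate 1 (highest adjusted p 0.0568). The call was also lost when only the 6 libraries of the comparison were fitted.

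Gdf15 (chr8:71082043-71085106, minus strand), a secreted cytokine of the TGF-beta family that is widely used as a marker of cell stress, was close to the limit of detection in all libraries. It had 10, 14 and 8 counts in MRC+L, 6, 11 and 12 counts in MRC, and 2, 0 and 0 counts in PBS. These are 0.473 to 0.937 CPM in MRC+L, 0.380 to 0.641 CPM in MRC and at most 0.104 CPM in PBS. All 6 libraries with particles had more counts than any PBS library. The ratio of summed counts per scaled library was 16.6 for MRC+L against PBS (95% exact interval 4.23 to 143, counting error only) and 14.3 for MRC against PBS (3.61 to 123). The edgeR test called both (adjusted p = 0.00333 and 0.00633), as did all 17 alternatives. Gdf15 passed the filter on low counts only through the groups where it is high, so these calls are a description, and its fitted fold change depends on the prior count because PBS had 2 counts in all. Between MRC+L and MRC the ratio was 1.16 (0.682 to 1.99).

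Zmat3 (chr3:32388941-32420163, minus strand) encodes a zinc finger protein that binds RNA and regulates splicing. It had 41.9, 45.4 and 43.2 CPM in MRC+L, 47.6, 47.3 and 37.8 CPM in MRC, and 21.9, 14.6 and 25.6 CPM in PBS. PBS lay below the other groups with no overlap, and PBS replicate 2 was lowest. The gene rose 2.10-fold in MRC+L (log2 1.07 ± 0.188, adjusted p = 0.00124) and 2.14-fold in MRC (log2 1.10 ± 0.188, adjusted p = 0.00135, edgeR). Without PBS replicate 2 the log2 fold changes were 0.89 and 0.91.

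**Figure D2:**
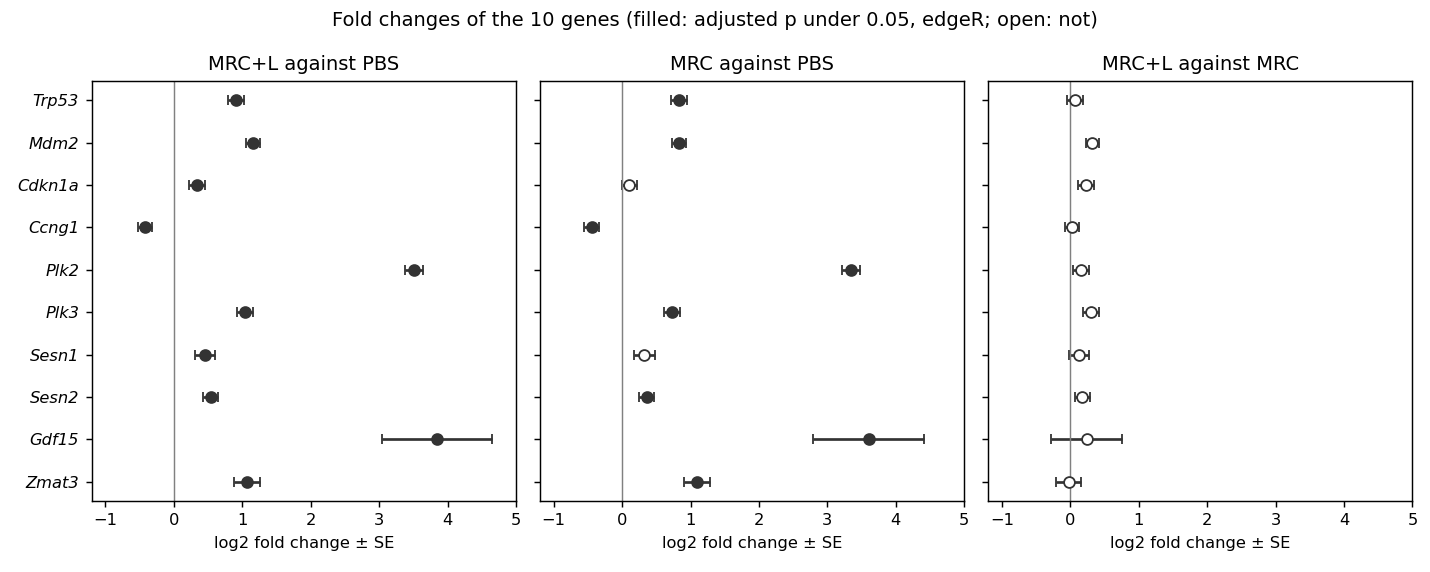
Log2 fold change (horizontal axes, edgeR, bars are SE) of the 10 genes in MRC+L against PBS, MRC against PBS and MRC+L against MRC; filled points have an adjusted p under 0.05. In MRC+L against PBS 9 points lie right of 0 and that of Ccng1 lies left of it, all points of MRC+L against MRC are open, and the value of Gdf15 rests on 2 counts in PBS.

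Per kilobase of exon, the scale on which levels of different genes can be compared, the order of the members changed with the particles mainly through Plk2. Plk2 was first in both groups with particles, at 121 ± 9.64 CPM per kb in MRC+L and 108 ± 13.01 CPM per kb in MRC, and seventh in PBS at 10.7 ± 0.418 CPM per kb, where its range overlapped that of Ccng1 (10.7 ± 0.810). Trp53, Plk3 and Mdm2 came next to the top in every group: 40.1 ± 2.16, 43.0 ± 0.991 and 38.0 ± 2.15 CPM per kb in MRC+L, and 38.2 ± 0.285, 34.8 ± 3.95 and 30.4 ± 0.740 CPM per kb in MRC. In PBS they were the 3 highest, at 21.5 ± 3.17, 21.0 ± 2.29 and 17.1 ± 1.28 CPM per kb. The ranges of Trp53 and Mdm2 overlapped in MRC+L, those of Trp53 and Plk3 and of Plk3 and Mdm2 overlapped in MRC, and those of Trp53 and Plk3 overlapped in PBS. Cdkn1a and Sesn2 stood side by side in the middle and overlapped in all 3 groups. Sesn1, Zmat3 and Gdf15 were the 3 lowest in each group; Zmat3 stood above Sesn1 in MRC+L (3.80 ± 0.154 and 3.10 ± 0.278 CPM per kb) and in MRC (3.87 ± 0.487 and 2.84 ± 0.219), while in PBS Zmat3 had 1.81 ± 0.489 and Sesn1 2.26 ± 0.297 CPM per kb with overlapping ranges.

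The stress-shared targets and the remaining targets were then set side by side, as a description without a test because the members were chosen with results known. Of the stress-shared members Plk2, Plk3 and Sesn2 rose in both comparisons with PBS, and their median log2 fold change was that of Plk3, 1.04 in MRC+L and 0.73 in MRC. With Gdf15, whose fitted fold change rests on 2 counts in PBS, the medians were 2.27 and 2.04. In MRC+L, where 46.2% of all genes were called, 4 of the remaining 5 members rose and 1 fell (median 0.45). In MRC, where 37.6% were called, 2 of the 5 rose, 1 fell and 2 were not called (median 0.33). The count that rose in MRC+L was 2 without MRC+L replicate 1 or without MRC+L replicate 2. The difference of the medians was 0.59 in MRC+L and 0.40 in MRC without Gdf15, and 1.82 and 1.71 with it. With Gdf15 kept and Cdkn1a on the stress-shared side it was 0.28 and 0.15. In single genes the lists overlapped, since Mdm2 and Zmat3 had larger fold changes than Plk3 and Sesn2 in both comparisons. For MRC+L against MRC the medians were 0.21 and 0.13.

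A wider list of 34 other p53 targets was divided in the same way, into 9 that are also driven by other stress factors and 25 others. Of the 9, 8 were tested. In MRC+L, where 46.2% of all genes were called, 5 rose and 1 fell (median 0.48). In MRC, where 37.6% were called, 3 rose and 1 fell (median 0.41). Those that rose in both were Gadd45a, Trp53inp1 and Tnfrsf10b. Without PBS replicate 2, where 56.4% of all genes were called in MRC+L and 51.4% in MRC, the count that rose in MRC was 5, with Bbc3 and Ier5 added. Of the 25, 23 were tested: 4 rose and 8 fell in MRC+L (median -0.11), where 46.2% of all genes were called over the 9 libraries, and 4 rose and 9 fell in MRC (median -0.22), where 37.6% were. The number that fell in MRC was 5 without MRC replicate 1, 2 or 3. The median in MRC+L was -0.17 without MRC+L replicate 1, -0.06 without MRC+L replicate 2 and 0.02 without PBS replicate 2. Leaving out PBS replicate 2 gave a median of -0.06 in MRC, leaving out PBS replicate 3 gave -0.13, and length-trend offsets gave 0.0042. The genes that rose in both were Aen, Tigar, Steap3 and Dram1. Those that fell in both were Dcxr, Ddb2, Ei24, Epha2, Fdxr, Pidd1, Polk and Psrc1, and Ephx1 was called lower in MRC only. Pmaip1, Perp and Eda2r were below the count filter.

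Gadd45a, a growth arrest gene also induced by ATF4, had 61.0 CPM in MRC+L, 55.9 CPM in MRC and 12.2 CPM in PBS (4.99-fold and 4.57-fold, adjusted p = 0.00014 and 0.000256, edgeR). Its PBS libraries had 8.93, 19.5 and 8.28 CPM, with PBS replicate 2 highest. Trp53inp1, a cofactor of p53 in cell death and autophagy, rose 4.89-fold and 3.98-fold (adjusted p = 0.000148 and 0.00043). Tnfrsf10b, which encodes a death receptor for TRAIL and is a CHOP target, rose 1.70-fold in MRC+L and 1.57-fold in MRC. Bbc3, which encodes the BH3-only protein PUMA, had 16.8, 19.8 and 14.6 CPM in MRC+L, MRC and PBS (adjusted p = 0.375 and 0.0786), and was called without PBS replicate 2 (adjusted p = 0.0266 and 0.00113). The cytokine gene Lif was 1.61-fold lower in MRC+L and 1.56-fold lower in MRC than in PBS.

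Among the others Aen, a nuclease of apoptosis, rose 2.59-fold in MRC+L and 2.50-fold in MRC (adjusted p = 1.23e-05 and 2.08e-05, edgeR). Tigar, which lowers glycolytic flux, rose 3.25-fold and 2.96-fold, and Steap3, an iron and copper reductase, 2.06-fold and 2.22-fold. Pidd1, the scaffold that activates caspase-2, was 1.96-fold lower in MRC+L and 2.01-fold lower in MRC than in PBS. Psrc1, which encodes a microtubule protein of mitosis, was 4.66-fold lower in MRC+L and 3.44-fold lower in MRC. Bax, which encodes a pore-forming protein of mitochondrial apoptosis, was not called over the 9 libraries (adjusted p = 0.371 and 0.342) and was called as higher in both comparisons without PBS replicate 2. Fas, which encodes a death receptor, was not called in either (adjusted p = 0.523 and 0.671).

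**Figure D3:**
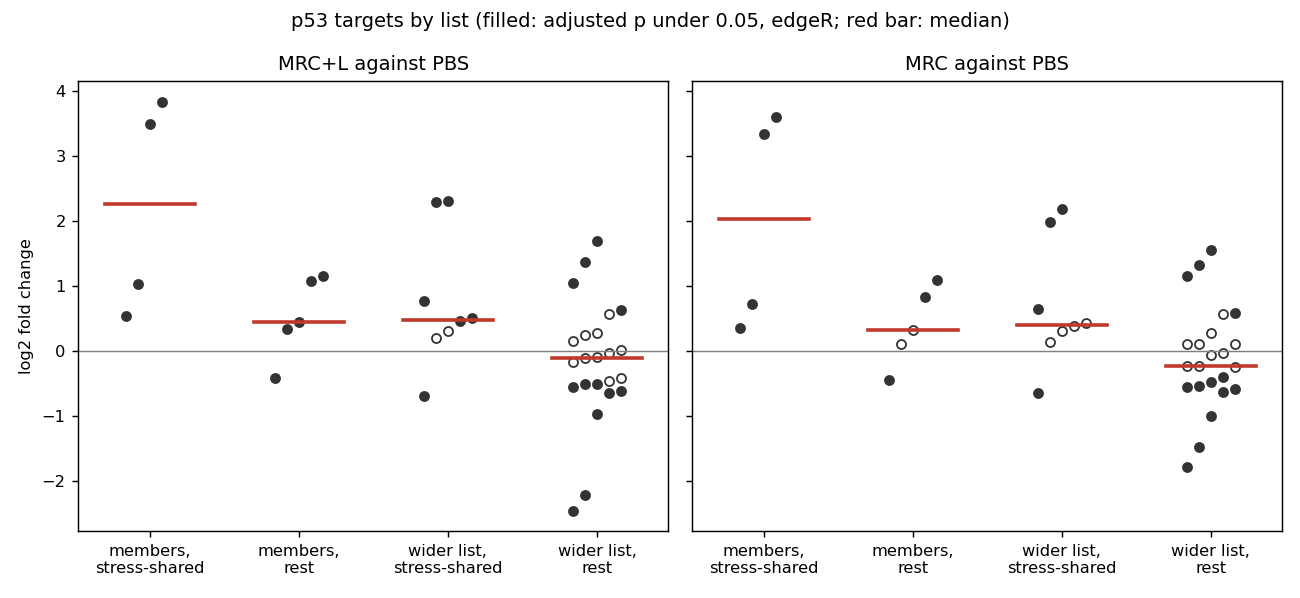
Log2 fold change (vertical axis, edgeR) of each tested p53 target against PBS, for MRC+L and MRC, in 4 lists: 4 stress-shared and 5 remaining members, and 8 stress-shared and 23 remaining genes of the wider list. Filled points have an adjusted p under 0.05 and red bars are medians, which lie at 2.27 (with Gdf15), 0.45, 0.48 and -0.11 in MRC+L.

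Of 18 listed regulators of p53, 15 were tested, and Cdkn2a, Trp63 and Trp73 were below the count filter. In MRC+L 4 rose (Mdm4, Hipk2, Crebbp and Atr) and 2 fell (Chek2 and Ppp1r13l), where 46.2% of all genes were called. In MRC 0 rose and the same 2 fell by edgeR, where 37.6% of all genes were called. Ppp1r13l, which encodes the p53 inhibitor iASPP, had 13.2 CPM in MRC+L, 14.1 CPM in MRC and 33.2 CPM in PBS, so it was 2.50-fold and 2.35-fold lower (adjusted p = 1.62e-05 and 3.17e-05). Chek2, a checkpoint kinase that phosphorylates p53, was 2.06-fold lower in MRC+L and 1.84-fold lower in MRC (adjusted p = 0.000238 and 0.000801). Counts of regulators that rose depended on single libraries. In MRC+L the count was 8 without PBS replicate 2, 1 without PBS replicate 1, MRC replicate 1, MRC replicate 2 or any MRC+L library, and 2 without MRC replicate 3. In MRC it was 4 without PBS replicate 2 and 5 without PBS replicate 3, and without PBS replicate 2 the regulators that fell numbered 5. Without PBS replicate 2 the share of all genes called was also larger, 56.4% in MRC+L and 51.4% in MRC against PBS. Hipk2, Crebbp and Chek1 had adjusted p = 0.0891, 0.103 and 0.105 in MRC against PBS.

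Other stress factors moved in both directions. Of 12 tested factors 6 rose (Atf3, Atf4, Atf6, Ddit3, Foxo3 and Xbp1) and 2 fell (Egr1 and Srf) in each comparison with PBS, where 46.2% of all genes were called in MRC+L and 37.6% in MRC. Atf3, an ATF family factor induced by ATF4, had 285 CPM in MRC+L, 244 CPM in MRC and 39.4 CPM in PBS (7.24-fold and 6.19-fold, adjusted p = 2.43e-06 and 5.02e-06). Ddit3, which encodes CHOP, rose 3.47-fold in MRC+L and 3.30-fold in MRC, and Xbp1, a factor of the unfolded protein response, 2.37-fold and 2.19-fold. Egr1, an immediate early factor driven by SRF, was 17.5-fold lower in MRC+L and 11.8-fold lower in MRC than in PBS (adjusted p = 1.07e-06 and 2.25e-06), and Srf itself was 1.47-fold and 1.42-fold lower. Nfe2l2, which encodes NRF2, was not called. Whether any of these factors acted on the members was not tested.

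For 6 members the genes with the most similar pattern over the 9 libraries were found as those with the smallest root mean square difference of centred log2 CPM. For Plk2 they were Acot2 (difference 0.101), Ptgs2 (0.159) and Cdsn (0.190). Ptgs2, the inducible cyclooxygenase, had 2235 CPM in MRC+L, 1965 CPM in MRC and 177 CPM in PBS. For Mdm2 they were Atf1 (0.0675), Gbe1 (0.0706) and Mafg (0.0718), for Sesn2 Smyd4 (0.0399), Supt5 (0.0543) and Xpo6 (0.0572), and for Sesn1 Fam84b (0.0572), Sfmbt1 (0.0692) and Rhot1 (0.0724). For Cdkn1a the 2 closest were Elavl1 (0.103) and Parp16 (0.104), and for Gdf15, whose pattern is noisy at so few counts, Myom2 (0.293), Matn2 (0.311) and Trim46 (0.338). All genes share the same 9 libraries, and none of these neighbours is another member.

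**Figure D4:**
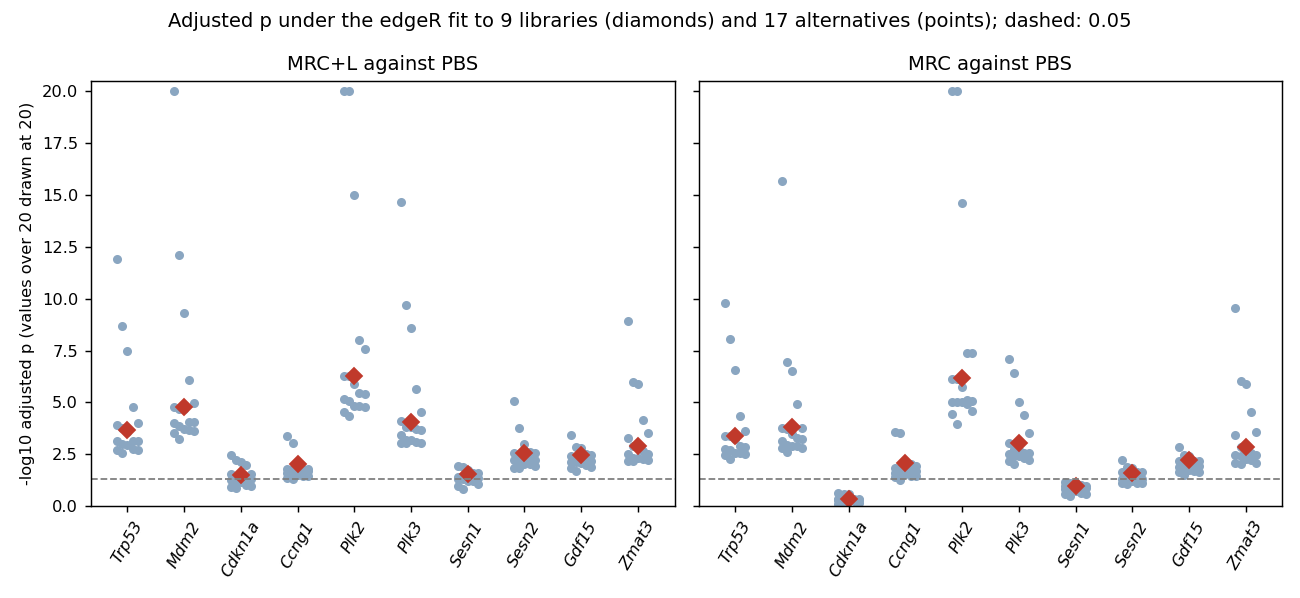
Negative log10 of the adjusted p (vertical axis, values over 20 drawn at 20) of each of the 10 genes against PBS, for MRC+L and MRC, under the edgeR fit to 9 libraries (diamonds) and 17 alternatives (points); the dashed line is 0.05. Points of Cdkn1a and Sesn1 lie on both sides of the line in MRC+L, and those of Sesn2 do so in MRC. Ccng1 has 1 point below the line in each panel, from the fit with no filter on low counts. Trp53, Mdm2, Plk2, Plk3, Gdf15 and Zmat3 lie above it in both panels.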

How the data were processed

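The authors deposited 1 table per library with raw counts of read pairs for 55416 genes, which come from featureCounts 2.0.1 (read pairs on exons, summed for each gene, Ensembl release 104, GRCm39, no strand option), per the file headers. RNA was isolated with Trizol and libraries made with an Illumina TruSeq kit, per the labels. The aligner is not given in the sources used here. Symbols came from GENCODE M21 by gene ID (52083 IDs, 94.0%); of 2 IDs for Ddit3 the one with the longer exons was used.

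Groups came from the sample titles. Genes were kept by the edgeR filter (minimum count 10, total 15), which left 13439. edgeR 4.0.16 in R 4.3.3 was fitted to all 9 libraries with TMM factors and 1 mean per group (prior count 0.125), and the tests were checked on simulated data. Alternatives used DESeq2 1.42.0, limma 3.58.1, RLE factors, no filter, a replicate block, offsets for gene length, the 6 libraries of a comparison, and each library left out. Summaries used pandas 2.3.3 (Python 3.11.15), and figures matplotlib 3.10.9. The members, gene lists and motifs were chosen with earlier results of these data known. All members are named, and of each other list up to 5 genes with the smallest adjusted p in MRC against PBS; other names given were chosen after their values were seen. For likeness of pattern the 3 closest genes are named, of which 1 is not reported here. Replicates differed by more than sampling noise (chi-square per degree of freedom 3.85 to 160).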

Additional observations from a re-analysis of the deposited data

How the results depend on the processing

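Of 509 member results under an alternative, 484 kept their side of the threshold, 21 lost a call and 4 gained one. None that was called turned its direction. With no filter on low counts the count of members lower than PBS was 0 in MRC+L and 0 in MRC. For MRC+L against MRC the members called higher were 1 with limma voom and 2 with the 6 libraries alone, and with the 6 libraries 2 wider targets (Ddit4 and Trp53inp1) and 3 regulators (Atr, Crebbp and Ep300) were called higher and Plk1 lower. All genes called there numbered 25 with DESeq2, 15 with no filter, 4 with length-trend offsets, 4 with these offsets and the replicate block, 79 with limma voom and 645 with the 6 libraries, beside 0 by edgeR with 9 libraries (573 at an unadjusted p under 0.05). The stress-shared minus rest medians for MRC+L and MRC against PBS were 0.28 and 0.15 with Cdkn1a moved, and 0.59 and 0.40 with Gdf15 left out, an alternative chosen after seeing the data. With 1 library left out, members higher ranged from 7 to 9 in MRC+L and 6 to 7 in MRC against PBS, and from 0 to 1 in MRC+L against MRC. Wider targets in MRC against PBS ranged from 7 to 11 higher and 6 to 10 lower, where 11 came without PBS replicate 2 and 6 without each MRC library. All genes called in MRC+L against MRC ranged from 0 to 102, with 102 without PBS replicate 2, 2 without PBS replicate 1 and 1 without PBS replicate 3. The causes were not tested.

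The labels do not say whether replicate numbers pair the samples. The correlation of same-numbered deviations lay between -0.185 and 0.0385, beside -0.126 to 0.204 for different numbers. With 3 libraries per group these values cannot decide whether samples were paired. The replicate block changed no member call. It moved the genes called to 5490 for MRC+L against PBS and 4283 for MRC against PBS, beside 6212 and 5050. Depth limits Gdf15 most, with at most 14 counts in a library.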
